A study of Mus musculus with 4 samples.

Results

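The genes described here are the IL-10 and IL-20 cytokine family as a set list of 9: the cytokine genes Il10, Il19, Il20 and Il24 and the receptor chain genes Il10ra, Il10rb, Il20ra, Il20rb and Il22ra1. They were matched by symbol through GENCODE vM21 to the 39179 genes of the count files, and all 9 were found and passed the filter on low counts. Mouse skin (C57BL/6 background) was profiled by RNA sequencing in 4 libraries, of which 2 are labelled wild type (WT) and 2 Itch KO, taken from the lesions of mice that lack Itch, a ubiquitin ligase whose loss is known to cause inflammation. All samples, also those of WT mice, carry the phenotype label inflammation, and the labels state no age, body site, allele or number of animals. The question was how the lesional skin of the knockout differs from WT skin.

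IL-10 is the best known cytokine that restrains inflammation, made by macrophages, regulatory T cells and other immune cells, and it acts through IL10RA and the shared chain IL10RB. IL-19, IL-20 and IL-24 are related cytokines made by activated myeloid cells and keratinocytes, and in skin they act mainly on keratinocytes. All 3 bind the pair IL20RA with IL20RB, and IL-20 and IL-24 also bind IL22RA1 with IL20RB, while IL22RA1 with IL10RB forms the receptor of IL-22. These receptors signal through JAK kinases to STAT3, and in epidermis that signal is known for thickening, for antimicrobial proteins and for reduced terminal differentiation.

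Depth was even, from 15144957 to 16008351 gene reads per library. Levels are given as CPM, read counts relative to a TMM-scaled library size. The targeted gene Itch was read at 96.7 and 103 CPM in WT skin, compared with 11.7 and 11.7 CPM in Itch KO skin, on the side of the labels in each library. Xist stood at 1055 and 631 CPM in WT and below 1 CPM in the knockouts, and 4 Y-linked genes summed to 0.267 and 0.316 against 176 and 153 CPM, so genotype and sex cannot be told apart in any comparison here. Skeletal muscle genes (15 listed) summed to 20860 CPM in WT replicate 1, 3331 in WT replicate 2 and 1623 and 1415 in the knockouts. Hair shaft genes (15 listed) summed to 37.7 CPM in WT replicate 1, against 7404 in WT replicate 2 and 7233 and 8786 in the knockouts. Keratinocyte genes (9 listed) were abundant in every library, with sums of 14256, 16119, 14030 and 16251 CPM. Whether the paired libraries of a group are separate animals is not labelled, and p-values then cover only the spread between these libraries, which may be technical.

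The sequences upstream of 4 of the members are shown because the cytokine genes lie side by side and were high in the same libraries, while Il20ra and Il22ra1 were low there. They are from RefSeq on GRCm38.p6, 5′ to 3′ on the strand of the gene, cut before the first base that GENCODE annotates as exon of that gene. Windows were matched for 5 of the 9 members, and in Il20rb the window lies within annotated exon and is not shown. The Il19 sequence is at chr1:130940116-130940365 and the Il20 sequence at chr1:130911452-130911546, both on the minus strand. The Il20ra sequence is at chr10:19712337-19712569 and the Il22ra1 sequence at chr4:135727909-135728158, both on the plus strand. Capitals mark matches to the motifs named after the sequences.
Il19: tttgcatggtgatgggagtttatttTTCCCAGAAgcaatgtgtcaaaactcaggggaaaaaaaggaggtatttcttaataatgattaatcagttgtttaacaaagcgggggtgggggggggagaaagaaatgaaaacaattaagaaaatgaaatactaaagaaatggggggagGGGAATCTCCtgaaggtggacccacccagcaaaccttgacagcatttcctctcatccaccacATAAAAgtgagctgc
Il20: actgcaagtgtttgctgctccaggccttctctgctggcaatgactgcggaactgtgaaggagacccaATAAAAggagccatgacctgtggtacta
Il20ra: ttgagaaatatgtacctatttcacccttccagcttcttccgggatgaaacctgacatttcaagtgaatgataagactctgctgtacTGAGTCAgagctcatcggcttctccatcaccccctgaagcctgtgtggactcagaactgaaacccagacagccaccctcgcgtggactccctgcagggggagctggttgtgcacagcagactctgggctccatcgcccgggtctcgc
Il22ra1: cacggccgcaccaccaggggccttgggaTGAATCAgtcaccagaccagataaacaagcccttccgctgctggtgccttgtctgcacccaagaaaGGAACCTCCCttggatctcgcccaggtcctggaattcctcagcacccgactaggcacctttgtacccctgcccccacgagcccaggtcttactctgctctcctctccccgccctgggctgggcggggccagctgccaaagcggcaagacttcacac

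The whole 300-base windows, from 250 bases before to 50 after the RefSeq start, were searched on both strands for an AP-1 motif (TGANTCA), an NF-kB motif (a strict and a general decamer), a STAT motif (TTCNNNGAA) and a C/EBP motif (TTGCNNAA), and on the strand of the gene for TATAAA and ATAAAA. All of these motifs were chosen after the 5 member sequences had been seen, and ATAAAA, which lies inside longer forms of a TATA box, was picked from them. The strict NF-kB decamer was searched first and matched 0 of the 5 windows, and it is in 0.411% of all windows. The general decamer, which allows more letters, was searched only after that result. Il19 and Il20 both hold ATAAAA, starting 15 and 28 bases before the nearest GENCODE start downstream, and 11.1% of all 32851 windows hold it. Il19 also holds the STAT motif 225 bases before that start, which 8.30% of windows hold. Il20ra and Il22ra1 each hold the AP-1 motif, present in 7.81% of windows, and Il20rb holds the C/EBP motif, present in 10.8%. Il19 and Il22ra1 hold the general NF-kB decamer, 77 and 156 bases before their RefSeq starts, and 8.46% of windows hold it. None of the 5 windows holds TATAAA, which is in 8.32%. A match is a description of letters and does not show binding.

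The 3 cytokines of the IL-20 group were almost unread in WT skin and readily read in both knockout libraries. Il24 (ENSMUSG00000026420, GRCm38 chromosome 1, 130882074 to 130887454, minus strand) gave 2 and 6 counts in WT replicates 1 and 2, compared with 257 and 534 counts in Itch KO replicates 1 and 2. On pooled counts this was a 96.7-fold higher level, with an exact 95% interval of 48.8 to 225 that covers counting error only. Both knockout libraries were far above both WT libraries, and Itch KO replicate 2 was the higher of the pair. The fitted log2 fold change of knockout over WT was 6.56 (SE 0.71, edgeR quasi-likelihood test with Benjamini-Hochberg adjusted p = 0.0617).

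Il19 (ENSMUSG00000016524, chromosome 1, 130932656 to 130940115, minus strand) gave 1 and 5 counts in WT skin, compared with 172 and 436 counts in Itch KO skin. The pooled level was 99.1-fold higher, with an exact 95% counting interval of 45.3 to 271. Its libraries took the same order as those of Il24, with Itch KO replicate 2 highest and WT replicate 1 lowest. The log2 fold change was 6.58 (SE 0.89, edgeR adjusted p = 0.0727).

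Il20 (ENSMUSG00000026416, chromosome 1, 130906985 to 130911451, minus strand) had 0 counts in both WT libraries and 19 and 26 counts in the knockouts. Against a floor of 3 counts over the WT group, its pooled knockout level was at least 14.7-fold higher. The edgeR test gave adjusted p = 0.0849. Il20 was the scarcest of the 3 in both knockouts: it made up 4.24% (exact 95% binomial interval 2.57 to 6.54) of the 448 reads of the 3 genes in replicate 1 and 2.61% (1.71 to 3.80) of 996 reads in replicate 2. Il24 made up 57.4% (52.6 to 62.0) and 53.6% (50.5 to 56.7) of those reads, and Il19 made up 38.4% (33.9 to 43.1) and 43.8% (40.7 to 46.9). The interval of each gene's share in one knockout library overlapped its interval in the other. These intervals cover counting error only, and their overlap is not a test of equal shares. The summed level of the 3 genes was 28.3 CPM in replicate 1 and 63.5 CPM in replicate 2.

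Il10 itself (ENSMUSG00000016529, chromosome 1, 131019845 to 131024974, plus strand) was also higher in both knockouts, by a smaller fold and at a low level. It gave 1 and 3 counts in WT skin, compared with 28 and 24 counts in Itch KO skin, a pooled 12.7-fold difference with an exact 95% counting interval of 4.68 to 48.4. Unlike Il19 and Il24, the knockout libraries were nearly level with each other. The log2 fold change was 3.59 (SE 0.61, edgeR adjusted p = 0.0873). The median log2 fold change of the 4 cytokines was 6.57, or 5.22 with Il20 set at its bound. The former was 5.96 and 7.48 without WT replicate 1 and 2, and 7.04 and 5.85 without Itch KO replicate 1 and 2. The 4 genes passed the filter on low counts only through the knockout libraries. A positive median was set by that, so it is not compared with the median of all tested genes.

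Set against all genes, no member passed an adjusted p of 0.05 in edgeR, where 0.00601% of the 16651 tested genes did. The gene that passed was the Y-linked Eif2s3y (edgeR adjusted p = 0.0269), and Itch itself did not pass (edgeR adjusted p = 0.0509). At an unadjusted p under 0.05, 6 members were higher (background 12.0%) and 2 lower (background 10.9%), with Il20ra the exception. DESeq2 called the same numbers, 6 higher (background 7.83%) and 2 lower (background 6.16%), and limma-voom called 0. Both knockouts lay above both WT libraries for 6 members (background 31.2%) and below them for 3 (background 30.0%). Leaving out a library puts a lone library in its group, whose spread is then taken from the other group. Counts of passing members and list genes from those fits are therefore not given. Their range over all genes is printed with the alternatives below, and it is not read as a result. All 9 members kept their direction in those fits.

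**Figure D1:**
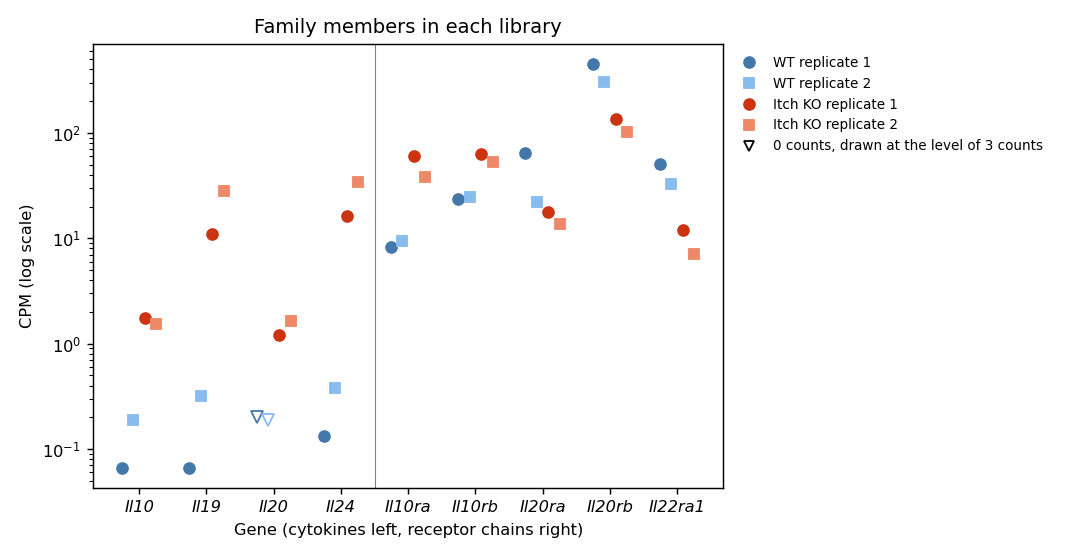
Level of each family member in the 4 libraries, in CPM on a log axis, with circles for replicate 1 and squares for replicate 2 of each group; open triangles mark libraries with 0 counts, drawn at the level of 3 counts. Both knockout libraries lie above both WT libraries for the 4 cytokines, Il10ra and Il10rb, and below them for Il20ra, Il20rb and Il22ra1.

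The receptor chains went in 2 directions. Il20rb, Il20ra and Il22ra1, the chains that epithelial cells use to sense IL-19, IL-20, IL-22 and IL-24, were lower in both knockout libraries. Il10ra, a chain of immune cells, and Il10rb, a chain made by most cells, were higher in both. In bulk skin, fewer cells of a type and less RNA per cell cannot be told apart.

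Il20rb (ENSMUSG00000044244, chromosome 9, 100457719 to 100486788, minus strand) was read at 448 and 305 CPM in WT skin, compared with 135 and 102 CPM in Itch KO skin. It encodes the chain that both IL-20 receptor forms share, and per length it was the most abundant member in both WT libraries and in Itch KO replicate 1, while in Itch KO replicate 2 Il24 stood level with it, at 24.5 against 24.2 CPM per kb. The groups did not overlap, with a log2 fold change of -1.67 (SE 0.28, edgeR adjusted p = 0.0858). Il22ra1 (ENSMUSG00000037157, chromosome 4, 135728172 to 135752140, plus strand), shared by the IL-20, IL-22 and IL-24 receptors, was read at 50.4 and 32.7 CPM in WT skin, compared with 12.0 and 7.14 CPM in Itch KO skin. Its log2 fold change was -2.12 (SE 0.39, edgeR adjusted p = 0.0964). For both genes WT replicate 1 was highest and Itch KO replicate 2 lowest.

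Il20ra (ENSMUSG00000020007, chromosome 10, 19712570 to 19760053, plus strand), the partner chain of Il20rb, was read at 65.0 and 21.8 CPM in WT skin, compared with 17.6 and 13.6 CPM in Itch KO skin. The groups did not overlap, but WT replicate 2 lay closer to the knockouts than to WT replicate 1. The log2 fold change was -1.48 (SE 0.58, edgeR adjusted p = 0.234). It was -0.49 without WT replicate 1 and -2.05 without WT replicate 2. WT replicate 1 is also the library with the high muscle and low hair shaft sums given above, and their part in the Il20ra value was not tested.

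The keratinocyte marker genes went both ways beside these 3 chains, and their part in the lower levels was not tested. The summed keratinocyte markers of the groups overlapped. Krt5, a keratin of basal keratinocytes, was read at 2920 and 2848 CPM in WT skin, compared with 2845 and 2935 CPM in Itch KO skin. Of the 9 markers, 2 were higher (background 31.2%) and 4 lower (background 30.0%) in both knockouts, with a median log2 fold change of -0.04. Krt14, which pairs with Krt5, was higher, at 1617 and 1888 CPM in WT skin and 2979 and 3475 CPM in Itch KO skin. Krt10, a suprabasal keratin, was lower, at 4274 and 4128 CPM in WT skin and 2331 and 2756 CPM in Itch KO skin. The desmosomal cadherin Dsc3 was lower too, at 1366 and 934 CPM in WT skin and 649 and 625 CPM in Itch KO skin. Krtdap and Trp63 were the other markers lower in both knockouts, with log2 fold changes of -0.49 and -0.33, and Sfn was the other higher one, at 0.72. Per 1000 CPM of the marker sum, Il20rb was read at 31.4 and 18.9 CPM in WT skin, compared with 9.62 and 6.27 CPM in Itch KO skin. Il22ra1 stood at 3.54 and 2.03 against 0.855 and 0.439 CPM on the same scale, and Il20ra at 4.56 and 1.35 against 1.25 and 0.839 CPM. The groups did not overlap for any of the 3 chains on this scale, and for Il20ra the nearest libraries of the groups were close.

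Il10ra (ENSMUSG00000032089, chromosome 9, 45253837 to 45269149, minus strand), the chain that is specific to IL-10, was read at 8.27 and 9.41 CPM in WT skin, compared with 60.6 and 38.2 CPM in Itch KO skin. The log2 fold change was 2.48 (SE 0.31, edgeR adjusted p = 0.0669). Macrophage and monocyte markers moved with it: 12 of 12 were higher in both knockouts, none was at 0 in a group, and their sum was 530 and 666 CPM in WT against 4315 and 3243 CPM in the knockouts. Per 1000 CPM of that sum, Il10ra was read at 15.6 and 14.1 CPM in WT skin, compared with 14.1 and 11.8 CPM in Itch KO skin, so on this scale the groups nearly met and the knockouts were not higher. Neutrophil markers were higher in both knockouts for 8 of 8 genes, with sums of 36.9 and 54.5 against 2164 and 970.3 CPM, and the defining marker Ly6g was at 0 in both WT libraries. T cell markers were higher in both knockouts for 7 of 9 genes, with sums of 56.6 and 37.4 against 80.4 and 59.5 CPM. The exceptions were Cd3e and Cd3g, which overlapped between the groups, with log2 fold changes of -0.56 (SE 0.46) and -0.43 (SE 0.38). The T cell marker Foxp3, the regulator of regulatory T cells, gave 2 and 10 counts in WT skin and 14 and 18 in Itch KO skin (edgeR adjusted p = 0.341). Over all tested genes, 31.2% were higher in both knockouts.

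Il10rb (ENSMUSG00000022969, chromosome 16, 91406164 to 91425834, plus strand) had the smallest log2 fold change in size of the 9 and the smallest SE. It was read at 23.7 and 24.7 CPM in WT skin, compared with 62.9 and 53.4 CPM in Itch KO skin, a log2 fold change of 1.26 (SE 0.18, edgeR adjusted p = 0.0746). The annotated gene Gm21970 shares 569 bases of exon with it on the same strand, so its level is uncertain where reads fall in those bases. Per 1000 CPM of the macrophage marker sum, Il10rb was read at 44.8 and 37.1 CPM in WT skin, compared with 14.6 and 16.5 CPM in Itch KO skin, unlike Il10ra. On the same scale Il10 was read at 0.126 and 0.284 CPM in WT skin, compared with 0.410 and 0.472 CPM in Itch KO skin, where the WT values rest on 1 and 3 counts.

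Dividing by the length of merged exons put the members on a common scale, CPM per kilobase (kb). In WT skin the order of levels was Il20rb (107 and 72.5), Il20ra (26.8 and 8.995), Il22ra1 (19.6 and 12.7), Il10rb (6.23 and 6.48) and Il10ra (2.36 and 2.69). The cytokines followed, with Il24, Il19 and Il10 between 0.0509 and 0.275 CPM per kb and Il20 at 0. Il20ra and Il22ra1 overlapped, as did Il24, Il19 and Il10. At the other steps the replicates of neighbouring genes did not overlap, but Il20 at 0 could not be told from Il10 at this depth.

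In the knockouts the receptor chains and the cytokines were no longer apart on this scale. Il20rb stood at 32.1 and 24.2 CPM per kb, Il24 at 11.7 and 24.5, and Il19 at 9.45 and 24.2. Il10ra stood at 17.3 and 10.9 CPM per kb and Il10rb at 16.5 and 14.0, and these 4 genes overlapped one another. Il24 in replicate 2 also reached the lower Il20rb value. Il20ra (7.23 and 5.62) and Il22ra1 (4.67 and 2.78) now lay below them. Il10 (1.35 and 1.17) and Il20 (1.01 and 1.40) were the lowest and overlapped. The ratio of Il24 to Il20rb per kb was 0.000902 and 0.00377 in WT and 0.365 and 1.01 in the knockouts.

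**Figure D2:**
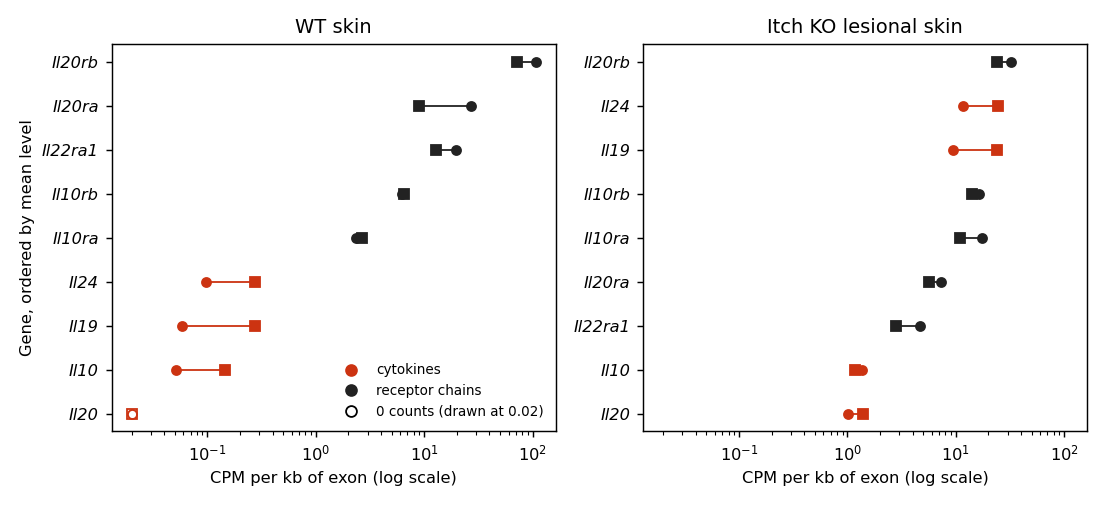
Level of each member in CPM per kilobase of exon on a log axis, in WT skin (left) and Itch KO skin (right), with genes ordered by their mean in that group; circles are replicate 1, squares replicate 2, and an open symbol marks 0 counts. In WT every receptor chain lies above every cytokine, and in the knockouts Il24 and Il19 reach the range of the receptor chains.

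The rest of the family gave a check of which ligands were read at all. Il22, the cytokine that uses IL22RA1 with IL10RB, had 1 count in Itch KO replicate 2 and 0 in the other libraries, and its near-identical copy Iltifb had 0 in all 4, although reads shared by the copies may have gone uncounted. Ifnl2 and Ifnl3, the type III interferons, which also use IL10RB, had 0 counts in all 4 libraries. A difference in these genes was not detectable at this depth, where 3 counts stand for 0.189 to 0.200 CPM. Il22ra2, which encodes a soluble binding protein that blocks IL-22, was read at 16.3 and 4.17 CPM in WT skin, compared with 7.77 and 1.27 CPM in Itch KO skin, with overlapping groups (edgeR adjusted p = 0.547). Ifnlr1, the interferon lambda receptor chain of epithelial cells, was read at 41.1 and 26.3 CPM in WT skin, compared with 18.9 and 16.1 CPM in Itch KO skin (log2 fold change -0.94, SE 0.29, edgeR adjusted p = 0.178).

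The wider class II cytokine receptor family, which also includes the interferon receptors and tissue factor, had log2 fold changes from -1.17 to 1.07. Of 7 other genes tested, 0 passed adjusted p in edgeR. Before adjustment, 2 higher (background 12.0%) and 1 lower (background 10.9%) had p under 0.05. DESeq2 called 1, higher (background 7.83%). The median log2 fold change was 0.35. It was 0.37 and -0.001 without WT replicate 1 and 2, and 0.21 and 0.44 without Itch KO replicate 1 and 2. Ifnar2, a chain of the type I interferon receptor and the neighbour of Il10rb, was read at 16.9 and 14.6 CPM in WT skin, compared with 34.4 and 31.7 CPM in Itch KO skin (log2 fold change 1.07, SE 0.20, edgeR adjusted p = 0.0996). Ifnar1, its partner chain on the same stretch of chromosome 16, stood at 50.1 and 46.8 against 77.0 and 65.0 CPM. Ifngr2, an interferon gamma receptor chain from that stretch too, stood at 83.1 and 82.8 against 112 and 102 CPM. Ifngr1, which lies beside Il22ra2 and Il20ra on chromosome 10, overlapped between the groups.

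**Figure D3:**
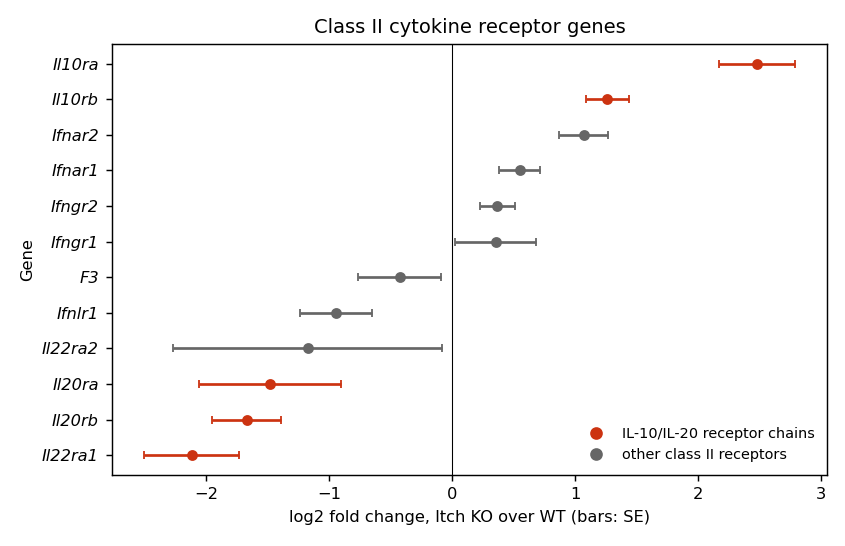
Log2 fold change of Itch KO over WT for 12 class II cytokine receptor genes, with SE bars from the edgeR fit; red points are the 5 receptor chains described here and grey points the 7 other genes. Il10ra has the highest value at 2.48 and Il22ra1 the lowest at -2.12, with the other genes between them.

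The 4 cytokine genes lie within 142.9 kb of chromosome 1, in the order Il24, Il20, Il19 and Il10. A window of 250 kb on each side held 14 further genes, of which 11 could be tested. Fcmr, an Fc receptor for IgM on lymphocytes and the next gene beyond Il24, gave 3 and 3 counts in WT skin, compared with 16 and 13 counts in Itch KO skin (log2 fold change 2.19, SE 0.50, edgeR adjusted p = 0.124). Mapkapk2, a kinase downstream of p38 and the next tested gene beyond Il10, was read at 221 and 214 CPM in WT skin, compared with 276 and 286 CPM in Itch KO skin (log2 fold change 0.37, SE 0.15, edgeR adjusted p = 0.233).

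Other genes of the window went both ways. Pfkfb2, a regulator of glycolysis, was read at 83.9 and 71.8 CPM in WT skin, compared with 49.8 and 46.0 CPM in Itch KO skin, and Yod1, a deubiquitinase, at 27.3 and 20.0 against 12.0 and 9.05 CPM. AA986860 stood at 82.3 and 88.7 against 53.4 and 58.9 CPM, and Fcamr, an Fc receptor for IgA and IgM, at 4.07 and 2.46 against 1.64 and 1.40 CPM. Dyrk3, a kinase, stood at 1.93 and 4.10 against 6.44 and 6.12 CPM. Rassf5 stood at 103 and 71.9 against 71.4 and 63.5 CPM. Pigr, the transporter of IgA, and Eif2d, a translation factor, overlapped between the groups, and Gm15848 had a log2 fold change of -0.27 (SE 0.36). C4bp had 2 counts in Itch KO replicate 1 alone, and Gm25549 and Gm25717 had 0 in all libraries.

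**Figure D4:**
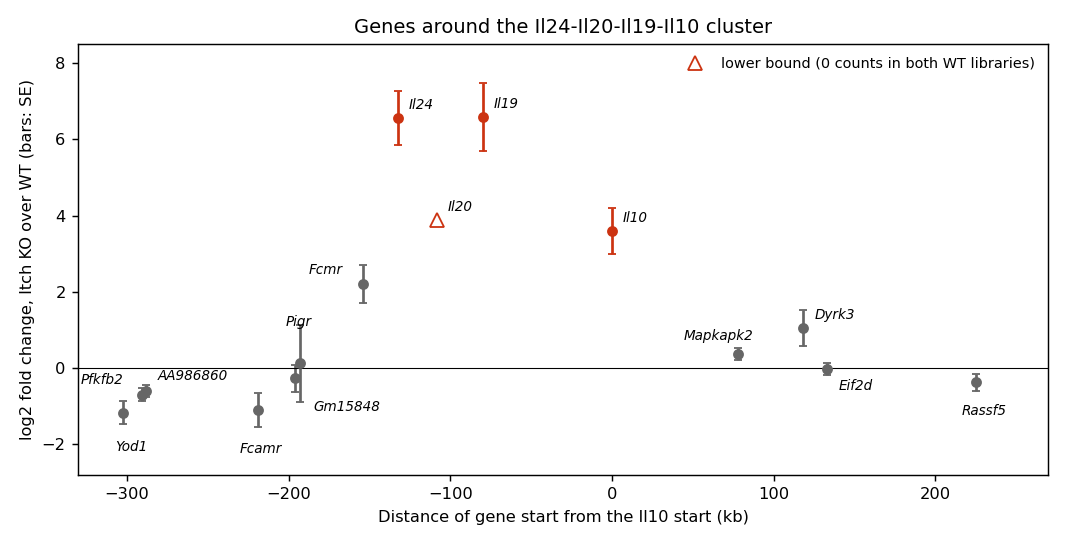
Log2 fold change of Itch KO over WT for the 15 tested genes around the cytokine cluster, against the distance of each gene's start from the start of Il10 in kb, with SE bars; red marks the cytokines, grey the neighbours, and the open triangle the lower bound for Il20. Il24, Il19 and Il10 lie at 6.56, 6.58 and 3.59, and Fcmr at 2.19 is the highest of the neighbours.

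Profiles over the 4 libraries were compared by the Euclidean distance of centred log2(CPM + 0.5) values, as a description of 4 points only. The cytokines' WT values lie below the added 0.5 CPM, which shrinks their differences on this scale, so no nearest genes are given for Il10 and Il20, the cytokines with the fewest counts. Of the genes with profiles close to Il24, Chil4, a chitinase-like gene, lay at a distance of 0.31. The nearest to Il19 was Il24 at 0.35. Il20rb lay nearest to Lmbrd2 at 0.05.

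Of the genes that carry or damp the signal, 3 SOCS inhibitors had the highest fold changes. Of 13 JAK, STAT, SOCS and related genes tested, 0 passed adjusted p in edgeR. Before adjustment, 5 higher (background 12.0%) and 1 lower (background 10.9%) had p under 0.05. DESeq2 called 3, all higher (background 7.83%). The median log2 fold change was 0.28, beside 0.01 over all tested genes. In both knockouts 7 genes were higher (background 31.2%) and 2 lower (background 30.0%). Socs3, the feedback inhibitor that STAT3 induces, was read at 47.1 and 32.6 CPM in WT skin, compared with 142 and 164 CPM in Itch KO skin (log2 fold change 1.94, SE 0.24, edgeR adjusted p = 0.0676). Socs1, a related inhibitor, stood at 6.60 and 6.25 against 16.7 and 20.1 CPM, and Socs2 at 12.1 and 8.40 against 19.8 and 22.0 CPM. Jak2 stood at 79.7 and 58.8 against 115 and 109 CPM. The median of the list was 0.29 and 0.27 without WT replicate 1 and 2, and 0.38 and 0.17 without Itch KO replicate 1 and 2.

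Stat3, the main transcription factor of these receptors, was read at 244 and 198 CPM in WT skin, compared with 291 and 323 CPM in Itch KO skin (log2 fold change 0.47, SE 0.18, edgeR adjusted p = 0.229). Jak1 and Tyk2, the kinases that IL-10 and IL-22 receptors use, overlapped between the groups, with log2 fold changes of -0.21 (SE 0.24) and -0.20 (SE 0.22).

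Genes known to respond to IL-20 or IL-22 in keratinocytes were mostly higher in both knockouts. Of 23 listed, 22 were tested, and 0 passed adjusted p in edgeR. Before adjustment, 15 higher (background 12.0%) and 2 lower (background 10.9%) had p under 0.05. DESeq2 called 15 higher (background 7.83%) and 2 lower (background 6.16%). The median log2 fold change was 3.57. It was 2.90 and 5.44 without WT replicate 1 and 2, and 3.48 and 3.61 without Itch KO replicate 1 and 2. Several of these genes also answer to other cytokines, and S100a8 and S100a9 are also neutrophil genes, whose markers are given above. Their part in the count was not tested. Some genes of the list passed the filter on low counts only through the knockouts and could only come out higher. Saa1, with 5 and 9 counts in WT skin, is an example.

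The 4 genes with the smallest p were Saa1, Serpinb3a, S100a9 and Mmp3, all higher. Saa1, an acute-phase protein, was read at 0.333 and 0.568 CPM in WT skin, compared with 22.0 and 15.4 CPM in Itch KO skin (log2 fold change 5.34, SE 0.45, edgeR adjusted p = 0.0548). Mmp3, a matrix protease, was read at 16.0 and 37.0 CPM in WT skin, compared with 334 and 247 CPM in Itch KO skin. The lower genes were the differentiation genes Lor, a major cornified envelope protein at 1263 and 1156 against 741 and 781 CPM, and Krt10, a suprabasal keratin at 4274 and 4128 against 2331 and 2756 CPM. Krt1, the partner of Krt10, and Ccl20 and S100a7a overlapped between the groups.

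Genes known to respond to IL-10 in myeloid cells were also mostly higher. Of 16 listed, 15 were tested, and 0 passed adjusted p in edgeR. Il10ra is among them, and so is Socs3, which is also counted with the JAK, STAT and SOCS genes. Before adjustment, 11 higher (background 12.0%) and 1 lower (background 10.9%) had p under 0.05. DESeq2 called 9 higher (background 7.83%) and 1 lower (background 6.16%). The median log2 fold change was 1.38. It was 1.55 and 1.70 without WT replicate 1 and 2, and 1.28 and 1.47 without Itch KO replicate 1 and 2. Il4ra, a receptor chain of IL-4 and IL-13, was read at 81.6 and 83.1 CPM in WT skin, compared with 291 and 409 CPM in Itch KO skin (log2 fold change 2.09, SE 0.23, edgeR adjusted p = 0.0617). Zfp36, which destabilises cytokine mRNAs, stood at 76.6 and 81.8 against 219 and 194 CPM. Cd163, a scavenger receptor that is on the macrophage list too, stood at 17.9 and 12.4 against 214 and 216 CPM. Etv3, a repressor, was the lower gene, at 176 and 143 against 97.8 and 103 CPM. Il1rn, Arg2 and Tnip3 overlapped between the groups. The macrophage sums given beside Il10ra moved with this list, and their part in it was not tested.

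**Figure D5:**
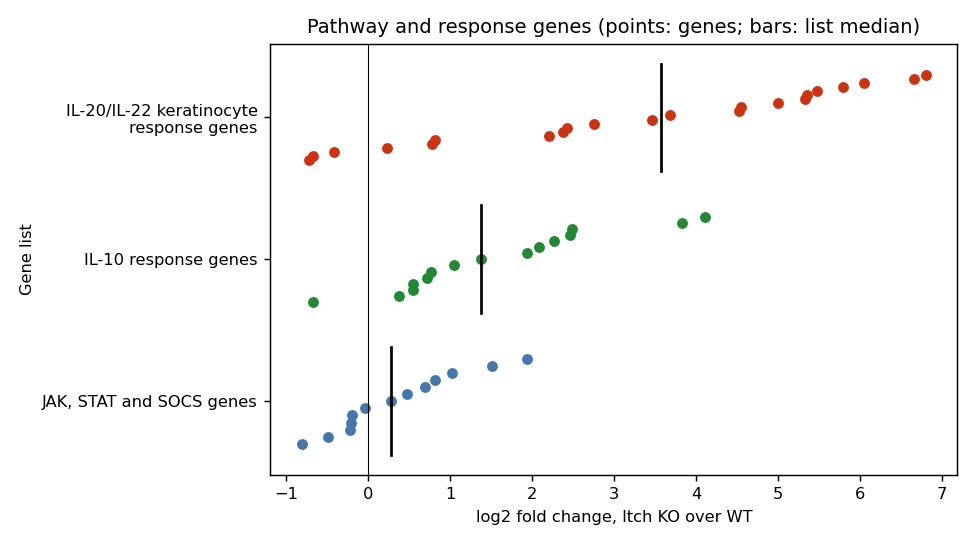
Log2 fold change of Itch KO over WT for the tested genes of 3 lists, with each point a gene and each vertical bar the list's median. The medians are 3.57 for the IL-20 and IL-22 response genes of keratinocytes, 1.38 for the IL-10 response genes and 0.28 for the JAK, STAT and SOCS genes.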

How the data were processed

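The values are raw read counts per Ensembl gene as the authors deposited them. The submitters' processing notes name HTSeq 0.6.1, TopHat2, CASAVA 1.8.2 and SAMtools 0.1.19, and the mm10 (GRCm38) build. Strand setting and annotation release were not given in the sources used here, so overlapping genes are uncertain. Special counter lines stayed out of library sizes: 5.68% to 7.45% of reads had no feature and 4.48% to 4.70% were ambiguous. GENCODE vM21 named 37607 of 39179 identifiers, and 1 listed gene (Flg) had no match.

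Counts were fitted over all 16651 genes kept by filterByExpr (minimum count 10) in R 4.3.3 with edgeR 4.0.16: TMM scaling, quasi-likelihood F test (two-sided, robust, legacy), Benjamini-Hochberg adjustment over all tested genes, threshold 0.05. Standard errors (SE) are the log2 fold change divided by the square root of F. DESeq2 1.42.0, limma-voom 3.58.1, RLE scaling, no filter, removal of muscle and hair shaft genes, a replicate block and leaving out each library were alternatives. The procedure was tested on simulated data. Replicates differed beyond counting noise (chi-square over its degrees of freedom 109 for WT, 23.5 for Itch KO).

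Members, lists and tests were chosen with earlier results of these data known. Named genes were all members, the rest of the family, the cluster neighbours, up to 4 genes with the smallest p of each list and the 2 nearest profiles per gene; others were named after their values were seen. Some genes that the naming rule selects are not reported here.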

Additional observations from a re-analysis of the deposited data

How the results depend on the processing

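All 9 members kept their direction under the 10 alternatives, and no member's call could be lost because none passed in edgeR. The number of members called was 0 and became 8 with DESeq2 and 5 without a filter on low counts. It stayed 0 with limma-voom, RLE scaling or without muscle and hair shaft genes. DESeq2 called 17 of the keratinocyte response genes and 10 of the IL-10 response genes. It called 3 of the JAK, STAT and SOCS genes and 1 of the other class II receptors, where edgeR called 0 of each list. Fits with a library left out hold a lone library in its group, so their counts of called genes are not read as a result. Over all genes, 1 gene was called, against 2329 with DESeq2, 0 with limma-voom and 488 without a filter, and 0 to 5320 when each library was left out. The log2 fold changes ranged from 5.94 to 7.48 for Il24, 5.76 to 8.02 for Il19, 3.07 to 4.48 for Il10, -1.92 to -1.37 for Il20rb, -2.54 to -1.78 for Il22ra1, 2.10 to 2.78 for Il10ra and 1.13 to 1.38 for Il10rb. Il20ra had the widest relative range, -2.05 to -0.49, with the smallest difference without WT replicate 1. With the replicate number as a block, edgeR called 0 genes and 0 members; the labels do not say that a number marks shared animals or days, and the deviations of the libraries numbered 1 from their group means correlated at 0.19 over genes. WT counts of 0 to 6 limit the precision of every cytokine fold, and 2 libraries per group limit all tests.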
